A study of Saccharomyces cerevisiae with 21 samples.

Results

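The 10 genes described here encode the enzymes that build and break down the storage carbohydrates trehalose and glycogen in *Saccharomyces cerevisiae*. They form a list of named genes, and all 10 were found in the count table of 7122 genes and passed the filter on low counts, as did 6164 genes in all. *TPS1*, *TPS2*, *TSL1* and *TPS3* make trehalose and *NTH1* breaks it down. *GSY1*, *GSY2* and *GLC3* make glycogen, and *GPH1* and *GDB1* break it down. They lie on chromosomes II, IV, V, VI, XII, XIII and XVI, each with 1 coding exon and with no other annotated gene overlapping the coding sequence. No 50-base stretch of any of the 10 coding sequences occurred elsewhere in the genome, so 50-base reads could be assigned to each paralog.

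Trehalose is a disaccharide of glucose that protects proteins and membranes, and glycogen is a branched glucose polymer that serves as a reserve. Both start from sugar phosphates and UDP-glucose, and both accumulate when yeast growth slows, when nutrients run short or when cells are stressed. Transcription of many of the genes of both pathways is known to respond to the stress factors Msn2 and Msn4, which are held back by protein kinase A while glucose is plentiful.

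RNA sequencing was performed on exponentially growing cells of 7 strains, with 3 libraries per strain, to compare strains in which the regulation of lipid synthesis was altered. Wild-type (BY4741), *mga2Δ* and *ino4Δ* cells carried no plasmid and grew in SDC+All, a synthetic complete medium. *MGA2* encodes a membrane-bound activator of the fatty acid desaturase gene *OLE1*, and *INO4* encodes a subunit of the Ino2/Ino4 activator of phospholipid synthesis genes. The other strains grew in SDC-URA, which lacks uracil, and carried a pRS316 plasmid with the constitutive *GPD* promoter and an mCherry fusion. These were wild-type with the Ole1 plasmid (*OLE1*), *mga2Δ* with the full-length Mga2 plasmid (*MGA2*), *mga2Δ* with the Mga2ΔTM plasmid, which lacks the membrane anchor (*mga2ΔTM*), and *ino4Δ* with the same Mga2ΔTM plasmid (*ino4Δ mga2ΔTM*). The last of these kept chromosomal *MGA2*. No wild-type strain with an empty plasmid in SDC-URA was analysed here, so in every comparison of a plasmid strain with a strain without one, the overexpressed gene, the plasmid and the medium cannot be told apart. The labels do not say whether replicates were separate cultures, and p-values measure the spread between these libraries only.

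Libraries held 12552418 to 18372240 counts. The engineered genes followed the labels, with 7 to 10 *MGA2* counts in *mga2Δ* libraries against 2374 to 3107 in wild-type, 10 to 29 *INO4* counts in libraries of both *ino4Δ* backgrounds against 140 to 181, and at most 1 *URA3* count in any library without a plasmid. Markers of haploid MATa cells (*MFA1*, *MFA2*, *STE2*, *STE6*, *BAR1*) stood at 18.6 to 686 CPM (counts scaled to a common library size) in all libraries, and the MATα pheromone genes *MF(ALPHA)1* and *MF(ALPHA)2* at no more than 1.07 CPM. The third MATα marker, the receptor gene *STE3*, stood at 4.76 to 13.7 CPM. Called against wild-type (edgeR, threshold given with the comparisons), 4 of the 5 MATa markers were lower in *mga2Δ*, where 2.38% of all tested genes were. In *ino4Δ* 3 were lower, while *MFA1* and all 3 MATα markers were higher. Of all tested genes, 10.1% were lower and 19.2% higher there. In *ino4Δ mga2ΔTM* 2 MATa markers were lower (9.30% of all tested genes), and *MFA1* and *STE3* were higher (17.9%). The share of all tested genes called higher was 6.08% in *OLE1* and 3.42% in *MGA2*. *STE3* and *MF(ALPHA)1* were higher in *OLE1*, *MFA1* was higher in *MGA2*, and none of the 8 markers was called in *mga2ΔTM*. The mean log2 CPM of the 5 MATa markers was 7.30 to 7.77 in wild-type, 6.54 to 7.04 in *mga2Δ* and 7.06 to 7.11 in *ino4Δ* libraries. The part of the mating-type markers in the results was not tested. The wild-type libraries did not lie close together for the storage carbohydrate genes. Wild-type replicate 2 was the highest of the 3 wild-type libraries for 10 of 10 genes, against 39.4% of all tested genes, and replicate 3 was the lowest for 9, against 32.3%. Replicate 2 lay above the mean of the other wild-type libraries by 0.41 (*TPS3*) to 1.51 (*GSY1*) on the log2 scale, while the median over all tested genes was 0.01. The calls that changed without a single wild-type library are given after the single genes.

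Msn2 and Msn4 are known to bind the stress response element, whose core is AGGGG. These letters were searched on both strands, where the other strand reads CCCCT, in the 500 bases before each start codon of the R64 assembly. They occurred at least once before 2044 of 6000 genes (34.1%), at least 2 times before 8.13% and at least 3 times before 1.83%. All 10 storage carbohydrate genes had at least 1 match, 9 had at least 2 and 5 had at least 3, with 30 matches in total. *TPS1* had 6, *TSL1* 5, *TPS2* 4, *NTH1* and *GLC3* 3 each, *TPS3*, *GSY1*, *GSY2* and *GPH1* 2 each and *GDB1* 1. These letters are a description of sequence and do not show that a factor binds there. The matches of the paralogs *TSL1* and *TPS3* and of the paralogs *GSY1* and *GSY2* are shown, because their expression is set side by side in the comparisons that follow. Each window holds 25 bases from R64, written 5′ to 3′ on the strand of the gene, with the match in capitals.
TSL1 (chrXIII:70236-70260, + strand): tcagggtaaaAGGGGcgaaacagag
TSL1 (chrXIII:70288-70312, + strand): ggtcaccccgCCCCTgcattttgat
TSL1 (chrXIII:70383-70407, + strand): ggagataggaAGGGGcgggggtccg
TSL1 (chrXIII:70435-70459, + strand): gggaaggagaAGGGGgtagaaccaa
TSL1 (chrXIII:70449-70473, + strand): ggtagaaccaAGGGGctagcacact
TPS3 (chrXIII:793590-793614, - strand): tcgcgcggtgCCCCTggaattaatt
TPS3 (chrXIII:793572-793596, - strand): attaattaatCCCCTtcagcacgca
GSY1 (chrVI:176844-176868, - strand): ggaatctttcAGGGGcacaatttcc
GSY1 (chrVI:176709-176733, - strand): acaagtaataCCCCTtggaggattt
GSY2 (chrXII:660329-660353, + strand): cactggactgCCCCTggattagcga
GSY2 (chrXII:660510-660534, + strand): acgcaattcaCCCCTttctttctta

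Per kilobase of coding sequence, *TPS1* was the most abundant of the 10 mRNAs in wild-type cells, at a mean of 225 CPM per kb, which placed it at percentile 90.9 of 5714 genes with a known length. *TPS2* followed with 103 CPM per kb. *TSL1*, *GSY2*, *TPS3*, *GPH1* and *NTH1* lay close together, between 82.0 and 69.0 CPM per kb. *GLC3*, *GSY1* and *GDB1* were the least abundant, with 32.3, 29.8 and 24.5 CPM per kb, near the median of all genes (32.2).

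Expression was compared with edgeR on all 21 libraries, and a gene was called where its level differed by a factor of more than 1.5 with an adjusted p (Benjamini-Hochberg, over all tested genes) below 0.05. Called genes are said to have risen or fallen. CPM values are counts scaled to library size with TMM factors, so they are shares of a library, and a change in transcripts per cell cannot be told apart from a change in the number of cells that hold them. All 6 comparisons with wild-type use the same 3 wild-type libraries.

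In *mga2Δ* cells, 9 of the 10 genes rose, where 9.52% of all tested genes rose. This count fell to 3 (*TPS1*, *NTH1* and *GDB1*) with only the *mga2Δ* and wild-type libraries in the fit, where 8.53% of all genes were called in either direction. In *ino4Δ* cells 8 rose, where 19.2% of all tested genes did. In each of the 4 plasmid strains 2 rose, against 6.08% of all genes in *OLE1*, 3.42% in *MGA2*, 6.49% in *mga2ΔTM* and 17.9% in *ino4Δ mga2ΔTM*. None of the 10 fell, where 0.990% of all genes fell in *OLE1*, 2.38% in *mga2Δ*, 0.552% in *MGA2*, 1.46% in *mga2ΔTM*, 10.1% in *ino4Δ* and 9.30% in *ino4Δ mga2ΔTM*. The genes whose 3 libraries all lay above the 3 wild-type libraries numbered 6 in *mga2Δ* (20.3% of all tested genes), 8 in *ino4Δ* (34.1%), 2 in *OLE1* (18.1%), 4 in *MGA2* (12.3%), 1 in *mga2ΔTM* (19.4%) and 3 in *ino4Δ mga2ΔTM* (30.0%). The median log2 fold change of the 10 genes was 0.90 in *mga2Δ*, 0.94 in *ino4Δ*, 0.29 in *OLE1*, 0.66 in *MGA2*, 0.28 in *mga2ΔTM* and 0.44 in *ino4Δ mga2ΔTM*, while the median over all tested genes lay between -0.01 and 0.03. The debranching enzyme gene *GDB1* was called in all 6 strains, the phosphorylase gene *GPH1* in 5, and the regulatory subunit gene *TPS3* in none. The share of all tested genes called in as many strains is not given here.

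**Figure D1:**
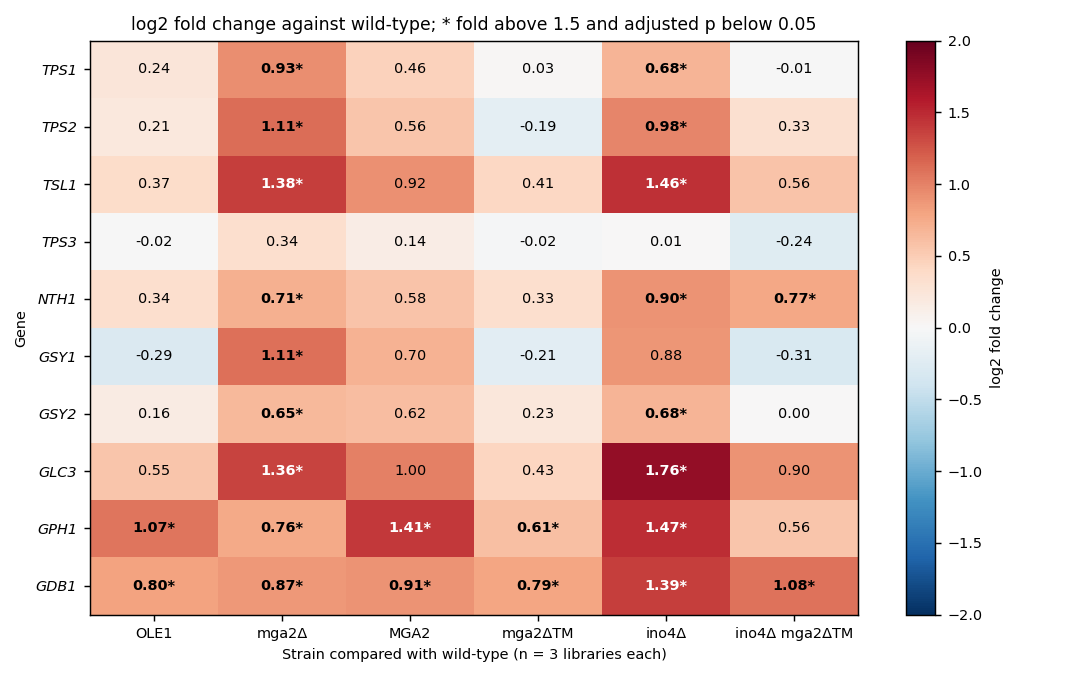
Log2 fold change of the 10 genes (rows) in 6 strains (columns) against wild-type, from the edgeR fit of 3 libraries per strain, with an asterisk and bold type where the gene was called. The *mga2Δ* and *ino4Δ* columns hold 9 and 8 called genes, where 9.52% and 19.2% of all tested genes rose. Each of the 4 plasmid strains holds 2, among them *GDB1* each time. Of all tested genes, 6.08% rose in *OLE1*, 3.42% in *MGA2*, 6.49% in *mga2ΔTM* and 17.9% in *ino4Δ mga2ΔTM*.

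*TPS1* encodes trehalose-6-phosphate synthase, the first enzyme of trehalose synthesis. Wild-type libraries held 286 (replicate 1), 444 (replicate 2) and 274 (replicate 3) CPM of *TPS1*. *mga2Δ* libraries held 507, 708 and 699 CPM. *ino4Δ* libraries held 450, 518 and 641 CPM. All libraries of both deletion strains were above all wild-type libraries, although the lowest *ino4Δ* library was only just above wild-type replicate 2. *TPS1* rose in *mga2Δ* by a log2 fold change of 0.93 ± 0.20 (SE, adjusted p = 0.00138, edgeR) and in *ino4Δ* by 0.68 ± 0.19 (adjusted p = 0.00613, edgeR). The call in *ino4Δ* was lost without wild-type replicate 1, wild-type replicate 3 or *ino4Δ* replicate 3. In the plasmid strains its log2 fold change was 0.24 in *OLE1*, 0.46 in *MGA2*, 0.03 in *mga2ΔTM* and -0.01 in *ino4Δ mga2ΔTM*, with none called.

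*TPS2* encodes trehalose-6-phosphate phosphatase, which removes the phosphate in the second step. Wild-type libraries held 199, 420 and 208 CPM. The *mga2Δ* libraries held 431, 696 and 659 CPM. The *ino4Δ* libraries held 478, 561 and 595 CPM. Both sets lay above all wild-type libraries, with *mga2Δ* replicate 1 close to wild-type replicate 2. *TPS2* rose by a log2 fold change of 1.11 ± 0.27 (SE, adjusted p = 0.00403, edgeR) in *mga2Δ* and of 0.98 ± 0.27 (adjusted p = 0.00469, edgeR) in *ino4Δ*. It was not called in a plasmid strain, where its values ran from -0.19 in *mga2ΔTM* to 0.56 in *MGA2*.

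*TSL1* and *TPS3* are paralogs that encode the large regulatory subunits of the trehalose synthase complex. *TSL1* had 203, 439 and 169 CPM in wild-type libraries. It had 469, 837 and 799 CPM in *mga2Δ* and 603, 668 and 959 CPM in *ino4Δ*. No library of the deletion strains overlapped with wild-type. *TSL1* rose by a log2 fold change of 1.38 ± 0.35 (SE, adjusted p = 0.00481, edgeR) in *mga2Δ* and of 1.46 ± 0.35 (adjusted p = 0.00152, edgeR) in *ino4Δ*. *TPS3* had 229, 296 and 216 CPM in wild-type, 273, 325 and 339 in *mga2Δ*, and 239, 241 and 265 in *ino4Δ*, so both deletion strains overlapped with wild-type. Its log2 fold change was 0.34 ± 0.11 in *mga2Δ*, which passed the adjusted p (0.0207, edgeR) but not the fold threshold, and 0.01 ± 0.11 in *ino4Δ*. In *ino4Δ mga2ΔTM* its libraries, with 208, 216 and 206 CPM, were all just below the lowest wild-type library, at a log2 fold change of -0.24 ± 0.11 (adjusted p = 0.0758, edgeR).

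The ratio of *TSL1* to *TPS3* counts within a library does not depend on library size. On the log2 scale it was -0.18, 0.57 and -0.35 in wild-type. It was 0.78, 1.36 and 1.24 in *mga2Δ*, 1.34, 1.47 and 1.86 in *ino4Δ*, and 1.03, 0.99 and 0.74 in *ino4Δ mga2ΔTM*. The libraries of these 3 strains lay above all wild-type libraries, and the exact two-sided permutation test over 3 against 3 libraries gave p = 0.1 for each, the smallest it can give (0.4 after Benjamini-Hochberg adjustment over the 12 ratio tests of the pairs *TSL1*/*TPS3* and *GSY1*/*GSY2*). The *OLE1*, *MGA2* and *mga2ΔTM* ratios overlapped with wild-type (exact permutation p = 0.3, 0.2 and 0.2, adjusted 0.48, 0.4 and 0.4).

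*NTH1* encodes the neutral trehalase, which splits trehalose into glucose. Wild-type libraries held 148, 193 and 126 CPM. *mga2Δ* libraries held 212, 269 and 282, *ino4Δ* libraries 257, 284 and 331, and *ino4Δ mga2ΔTM* libraries 241, 294 and 260 CPM. All 9 of these libraries were above the wild-type libraries. *NTH1* rose by a log2 fold change of 0.71 ± 0.15 (SE, adjusted p = 0.00138, edgeR) in *mga2Δ*, of 0.90 ± 0.15 (adjusted p = 5.41e-05, edgeR) in *ino4Δ* and of 0.77 ± 0.15 (adjusted p = 0.000269, edgeR) in *ino4Δ mga2ΔTM*. In the last strain it was the only trehalose gene called. In *MGA2* its libraries, with 205, 232 and 259 CPM, were also above all wild-type libraries, but its log2 fold change of 0.58 was short of the fold threshold (adjusted p = 0.0191, edgeR). There limma-voom (0.59, adjusted p = 0.0153) and library totals (0.62, adjusted p = 0.0289, edgeR) did call *NTH1*. Its log2 fold change was 0.34 in *OLE1* and 0.33 in *mga2ΔTM*, neither called.

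**Figure D2:**
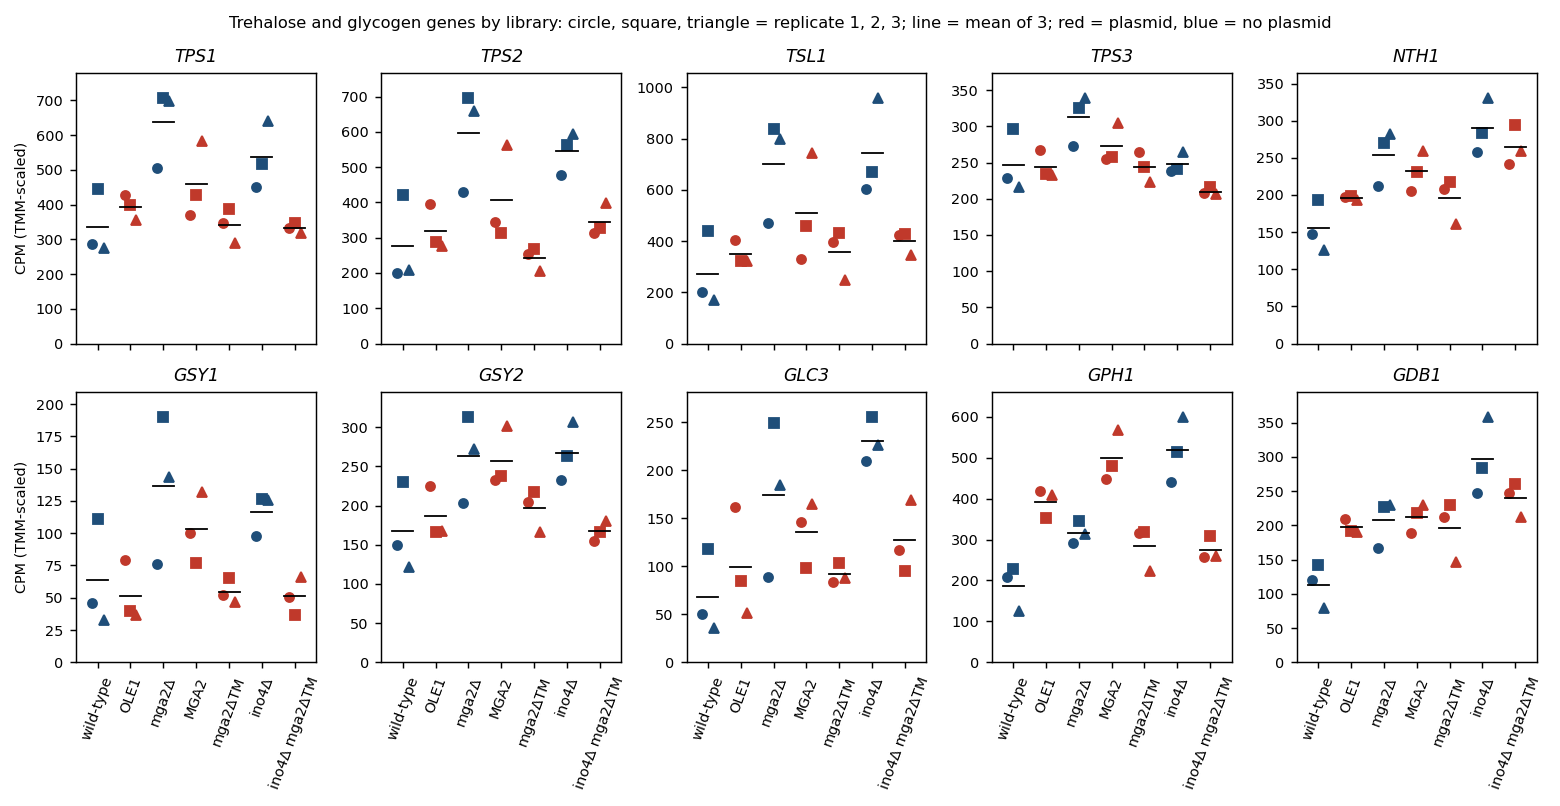
CPM of each of the 10 genes in every library (vertical axis, TMM-scaled, from 0) by strain (horizontal axis), with circle, square and triangle for replicates 1, 2 and 3, a line for the mean of 3, blue for strains without and red for strains with a plasmid. In *TPS1*, *TPS2*, *TSL1*, *GSY1* and *GLC3* the square of wild-type replicate 2 stands well above the other wild-type points, while *GPH1* and *GDB1* are higher than in wild-type in nearly all other libraries.

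*GSY1* and *GSY2* are paralogs that encode glycogen synthase, which adds glucose from UDP-glucose to the growing chain. *GSY1* had 46.1, 111 and 32.9 CPM in wild-type libraries, which differed by a factor of 3.38. It had 75.8, 190 and 143 CPM in *mga2Δ* and 97.9, 126 and 126 CPM in *ino4Δ*. Wild-type replicate 2 thus overlapped with the range of both deletion strains. *GSY1* rose by a log2 fold change of 1.11 ± 0.40 (SE, adjusted p = 0.0378, edgeR) in *mga2Δ*, and reached 0.88 ± 0.40 (adjusted p = 0.068, edgeR) in *ino4Δ*, which was not called. The call in *mga2Δ* was lost with no filter on low counts, with only the strains compared, and without wild-type replicate 1 or 3 or *mga2Δ* replicate 2 or 3. Its log2 fold change was -0.29 in *OLE1*, -0.21 in *mga2ΔTM* and -0.31 in *ino4Δ mga2ΔTM*, none of them called. All 3 turned positive without wild-type replicate 2 (0.38, 0.45 and 0.37).

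*GSY2*, the more abundant glycogen synthase gene, had 150, 230 and 122 CPM in wild-type libraries. It had 204, 314 and 272 CPM in *mga2Δ* and 233, 263 and 307 CPM in *ino4Δ*. The *ino4Δ* libraries all exceeded wild-type, though the lowest did so narrowly, and *mga2Δ* replicate 1 did not. *GSY2* rose by a log2 fold change of 0.65 ± 0.20 (SE, adjusted p = 0.0176, edgeR) in *mga2Δ* and of 0.68 ± 0.20 (adjusted p = 0.00828, edgeR) in *ino4Δ*. The call in *ino4Δ* was lost without wild-type replicate 3 or *ino4Δ* replicate 3. Its values in *OLE1*, *mga2ΔTM* and *ino4Δ mga2ΔTM* were 0.16, 0.23 and 0.00. In *MGA2* the 232, 238 and 302 CPM lay above all wild-type libraries, with a log2 fold change of 0.62 ± 0.20 that was not called (adjusted p = 0.0635, edgeR). It was called by limma-voom (0.66, adjusted p = 0.0422) and DESeq2 (0.62, adjusted p = 0.0244). The log2 ratio of *GSY1* to *GSY2* overlapped with wild-type in all 6 strains, with exact permutation p of 0.2 to 0.6 (adjusted 0.4 to 0.6).

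*GLC3* encodes the branching enzyme, and its wild-type libraries spread almost as widely as those of *GSY1*, with 50.5, 118 and 35.7 CPM. *mga2Δ* libraries held 88.5, 249 and 185 CPM and *ino4Δ* libraries 210, 256 and 226 CPM. All *ino4Δ* libraries were above wild-type, whereas *mga2Δ* replicate 1 lay below wild-type replicate 2. *GLC3* rose by a log2 fold change of 1.76 ± 0.44 (SE, adjusted p = 0.00227, edgeR) in *ino4Δ*, the highest value of the 10 genes in any comparison with wild-type. In *mga2Δ* it rose by 1.36 ± 0.44 (adjusted p = 0.0211, edgeR). The plasmid strains gave 0.55 (*OLE1*), 1.0 (*MGA2*), 0.43 (*mga2ΔTM*) and 0.90 (*ino4Δ mga2ΔTM*), with standard errors of 0.43 to 0.44 and no call. Under limma-voom and with library totals, *GLC3* was called in *ino4Δ mga2ΔTM*.

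*GPH1* encodes glycogen phosphorylase, which releases glucose-1-phosphate from the chain ends. Wild-type libraries held 208, 229 and 125 CPM. *OLE1* libraries held 418, 352 and 408 CPM, *MGA2* libraries 447, 479 and 568 CPM, and *ino4Δ* libraries 441, 513 and 600 CPM. These 9 libraries were far above all wild-type libraries. In *mga2Δ* the level was intermediate, at 292, 344 and 312 CPM, and also above wild-type. *mga2ΔTM* libraries held 315, 317 and 223 CPM, the last below wild-type replicate 2, and *ino4Δ mga2ΔTM* libraries held 256, 309 and 260 CPM, all above wild-type. *GPH1* rose by a log2 fold change of 1.41 ± 0.19 (SE, adjusted p = 9.87e-05, edgeR) in *MGA2*, of 1.07 ± 0.19 (adjusted p = 0.000494, edgeR) in *OLE1* and of 1.47 ± 0.19 (adjusted p = 3.12e-06, edgeR) in *ino4Δ*. It also rose in *mga2Δ* (0.76 ± 0.18, adjusted p = 0.00406, edgeR) and in *mga2ΔTM* (0.61 ± 0.18, adjusted p = 0.0234, edgeR). In *ino4Δ mga2ΔTM* the value of 0.56 ± 0.18 was just short of the fold threshold (adjusted p = 0.0159, edgeR). Under limma-voom and with library totals, *GPH1* was called in that strain too.

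*GDB1* encodes the debranching enzyme, which clears the branch points that stop the phosphorylase. Wild-type libraries held 119, 141 and 78.7 CPM. *ino4Δ* libraries were highest, with 247, 283 and 359 CPM, and *ino4Δ mga2ΔTM* libraries held 247, 260 and 212 CPM. The other strains ranged from 147 CPM (*mga2ΔTM* replicate 3) to 230 CPM (*mga2Δ* replicate 3 and *mga2ΔTM* replicate 2). All 18 libraries of the 6 strains lay above the 3 wild-type libraries, which were the same in each comparison. In single strains this was so for 12.3% (*MGA2*) to 34.1% (*ino4Δ*) of all tested genes. The share for all 6 strains together is not given here. *GDB1* rose by a log2 fold change of 1.39 ± 0.20 (SE, adjusted p = 1.15e-05, edgeR) in *ino4Δ* and of 1.08 ± 0.20 (adjusted p = 0.00015, edgeR) in *ino4Δ mga2ΔTM*. In the other strains it rose by 0.79 to 0.91, with adjusted p of 0.00231 to 0.00738 (edgeR). The call was lost in *MGA2* and *mga2ΔTM* with only the strains compared (adjusted p = 0.07 and 0.0571, edgeR). In *mga2ΔTM* it was also lost without wild-type replicate 3.

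After these values were seen, the ratio of *GPH1* to *GSY2* was computed within each library, and no test was run on it. The log2 ratio was 0.48, -0.01 and 0.03 in wild-type. It was 0.89, 1.08 and 1.28 in *OLE1*, 0.94, 1.01 and 0.91 in *MGA2*, 0.92, 0.96 and 0.97 in *ino4Δ* and 0.72, 0.89 and 0.53 in *ino4Δ mga2ΔTM*, all above the wild-type libraries. In *mga2Δ*, with 0.52, 0.13 and 0.20, and in *mga2ΔTM*, with 0.62, 0.54 and 0.43, it overlapped with wild-type. The ratio of *GPH1* to *GLC3* overlapped with wild-type in all 6 strains, so the separation was not seen with each glycogen synthesis gene.

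**Figure D3:**
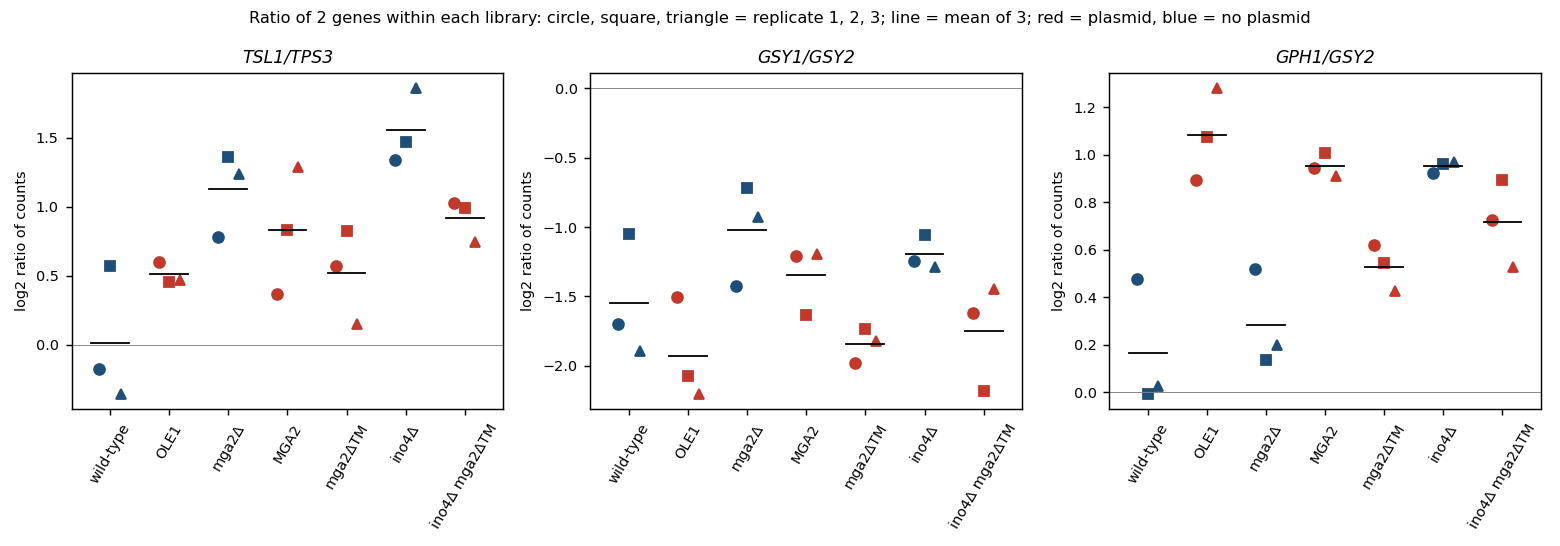
Log2 ratio of the counts of 2 genes within each library (vertical axis) by strain (horizontal axis) for *TSL1*/*TPS3*, *GSY1*/*GSY2* and *GPH1*/*GSY2*, with circle, square and triangle for replicates 1, 2 and 3 and a line for the mean of 3. The *TSL1*/*TPS3* ratio of *mga2Δ*, *ino4Δ* and *ino4Δ mga2ΔTM* libraries lies above wild-type, the *GSY1*/*GSY2* ratio overlaps throughout, and the *GPH1*/*GSY2* ratio is above wild-type in *OLE1*, *MGA2*, *ino4Δ* and *ino4Δ mga2ΔTM*.

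Several of these counts depended on single libraries. Without wild-type replicate 2, 9 of the 10 genes rose in *MGA2* instead of 2 (5.94% of all genes were called in either direction), and 6 instead of 2 rose in *ino4Δ mga2ΔTM* (29.7%). The added genes were *TPS1*, *TPS2*, *TSL1*, *NTH1*, *GSY1*, *GSY2* and *GLC3* in *MGA2*, and *TPS2*, *TSL1*, *GLC3* and *GPH1* in *ino4Δ mga2ΔTM*. In *ino4Δ* *GSY1* was then called as well. Without wild-type replicate 3, the count was 4 instead of 9 in *mga2Δ* (*TPS1*, *TPS2*, *TSL1* and *GDB1* were left), 0 instead of 2 in *mga2ΔTM*, and 6 instead of 8 in *ino4Δ* (without *TPS1* and *GSY2*). Of all tested genes, 8.87%, 6.6% and 26.9% were then called in either direction, against 11.9%, 7.95% and 29.3% with all libraries. Without wild-type replicate 1, the count in *mga2Δ* was 6 (10.1% of all tested genes), with *GSY1*, *GSY2* and *GLC3* lost, *ino4Δ* lost *TPS1*, and *ino4Δ mga2ΔTM* gained *GPH1*. The same 3 genes were lost in *mga2Δ* without *mga2Δ* replicate 2 or 3. Leaving out *ino4Δ* replicate 3 lost *TPS1* and *GSY2* in *ino4Δ*. Leaving out *mga2ΔTM* replicate 1 or 2 left 1 call in that strain, *GDB1* (7.18% and 6.49% of all tested genes were called). Without *MGA2* replicate 1 *NTH1* was called in *MGA2*, and without *ino4Δ mga2ΔTM* replicate 1 or 3 *GPH1* was called in *ino4Δ mga2ΔTM*. In *OLE1* the same 2 genes were called each time. With only the strains compared, 1 gene was left in *MGA2* (*GPH1*) and none in *mga2ΔTM*, where 1.87% and 7.05% of all tested genes were called.

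The deletion strains were also compared with the same backgrounds carrying a plasmid. In *mga2ΔTM* against *mga2Δ*, 4 of the 10 genes fell and none rose, where 7.27% of all tested genes fell and 5.63% rose. These were *TPS1* (-0.90 ± 0.20, SE, adjusted p = 0.00168), *TPS2* (-1.30 ± 0.27, adjusted p = 0.0013), *TSL1* (-0.97 ± 0.34, adjusted p = 0.0364) and *GSY1* (-1.32 ± 0.41, adjusted p = 0.0187), all as log2 fold changes from edgeR. *mga2ΔTM* libraries held 348, 387 and 289 CPM of *TPS1*, 252, 267 and 205 CPM of *TPS2*, and 51.9, 65.2 and 47.1 CPM of *GSY1*, each below all *mga2Δ* libraries. For *TSL1* the *mga2ΔTM* libraries held 394, 433 and 248 CPM, also below *mga2Δ*. With *TPS3*, whose log2 fold change of -0.36 was short of the fold threshold, 5 of the 10 genes were lower in all *mga2ΔTM* than in all *mga2Δ* libraries, which was so for 21.8% of all tested genes. The breakdown genes *GPH1* (-0.15 ± 0.18), *GDB1* (-0.08 ± 0.19) and *NTH1* (-0.38 ± 0.15, adjusted p = 0.0591, edgeR) were not called. Nor were the synthesis genes *GLC3* (-0.93 ± 0.43, adjusted p = 0.107, edgeR) and *GSY2* (-0.42 ± 0.20, adjusted p = 0.117, edgeR). Without *mga2ΔTM* replicate 1, *mga2ΔTM* replicate 3 or *mga2Δ* replicate 2, only *TPS1* and *TPS2* remained called, and without *mga2Δ* replicate 3 *TSL1* was lost. The call of *TSL1* was also lost with library totals and with no filter on low counts.

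With full-length Mga2 on the plasmid, 1 of the 10 genes rose against *mga2Δ* and none fell, where 2.86% of all tested genes rose and 6.02% fell. This was *GPH1*, at a log2 fold change of 0.65 ± 0.18 (SE, adjusted p = 0.0126, edgeR), with every *MGA2* library above every *mga2Δ* library. *TPS1* (-0.47 ± 0.19, adjusted p = 0.0778) and *TPS2* (-0.55 ± 0.27, adjusted p = 0.135) were lower but not called in the edgeR fit. Without *MGA2* replicate 3, which had the highest level of the 3 *MGA2* libraries for all 10 genes, *TPS1* and *TPS2* were called as lower and *GPH1* was no longer called. Without *mga2Δ* replicate 1, *GPH1* was called as higher and *TPS1* as lower. Between the plasmid strains *mga2ΔTM* and *MGA2*, which share background, vector and medium, 1 gene fell, again *GPH1* (-0.80 ± 0.18, adjusted p = 0.00893, edgeR), where 0.827% of all tested genes fell and 2.58% rose. The *mga2ΔTM* libraries, at 223 to 317 CPM, were all below the *MGA2* libraries. None of the 10 log2 fold changes was above 0, and their median was -0.47 (0.01 over all tested genes). *GSY1* (-0.91 ± 0.41, adjusted p = 0.182), *TPS2* (-0.75 ± 0.27, adjusted p = 0.0919) and *TPS1* (-0.43 ± 0.19, adjusted p = 0.187) were not called by edgeR. Like *GPH1*, these genes had an unadjusted p below 0.05, and DESeq2 also called *TPS2*.

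In *ino4Δ mga2ΔTM* against *ino4Δ*, 4 of the 10 genes fell and none rose, where 5.16% of all tested genes fell and 4.30% rose. These were *GPH1* (-0.91 ± 0.18, SE, adjusted p = 0.00128), *TPS1* (-0.69 ± 0.19, adjusted p = 0.0138), *GSY2* (-0.68 ± 0.20, adjusted p = 0.0188) and *GSY1* (-1.19 ± 0.41, adjusted p = 0.0363), as log2 fold changes from edgeR. *TPS1* stood at 334, 348 and 319 CPM in *ino4Δ mga2ΔTM*, which was within the wild-type range, and *GSY2* at 155, 167 and 180 CPM. For 8 of the 10 genes all *ino4Δ mga2ΔTM* libraries were below all *ino4Δ* libraries, which was so for 24.6% of all tested genes. *NTH1* and *GDB1* were the genes whose libraries overlapped, with log2 fold changes of -0.13 ± 0.15 and -0.31 ± 0.19. Only *GPH1* was called without *ino4Δ* replicate 3, and only *TPS1* and *GPH1* without *ino4Δ mga2ΔTM* replicate 1 or 2. Without *ino4Δ* replicate 2, and with no filter on low counts, *GSY1* was lost.

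The change with the Mga2ΔTM plasmid was compared between the *mga2Δ* and *ino4Δ* backgrounds, which differ from each other also in that the *ino4Δ* strain kept chromosomal *MGA2*. None of the 10 genes was called for this difference, against 3.29% of all tested genes. The gene with the smallest p was *GPH1*, with a difference of log2 fold changes of 0.76 ± 0.26 (SE, adjusted p = 0.0879, edgeR). It was the only one of the 10 with an unadjusted p below 0.05, and DESeq2 called it while limma-voom did not. In *ino4Δ* against *mga2Δ*, *GPH1* was the only one of the 10 called, higher in *ino4Δ* by a log2 fold change of 0.71 ± 0.18 (SE, adjusted p = 0.0056, edgeR), where 9.65% of all tested genes were higher and 2.27% lower. *GDB1* was higher by 0.52 ± 0.19 with an adjusted p of 0.0464, short of the fold threshold. Without *ino4Δ* replicate 3 no gene was called, and without *ino4Δ* replicate 1 *GDB1* was called as well. None of the 10 was called by edgeR, DESeq2 or limma-voom in *mga2ΔTM* against *OLE1*, where 2.87% of all tested genes were higher and 2.22% lower, and at an unadjusted p below 0.05 there was 1, *GPH1*. None was called by these tools in *ino4Δ mga2ΔTM* against *mga2ΔTM* either, where 9.31% were higher and 3.68% lower, and at an unadjusted p below 0.05 there was 1, *NTH1*.

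A wider list of 33 genes of the same pathways was set beside the 10. In *ino4Δ* 12 of them rose and none fell, where 19.2% of all tested genes rose and 10.1% fell. Those with the smallest adjusted p (edgeR) were *SGA1*, the intracellular glucoamylase known from sporulation (2.52 ± 0.22, SE, adjusted p = 2.91e-08), *GIP2* and *PIG1*, regulatory subunits of the Glc7 phosphatase (2.52 ± 0.30, adjusted p = 1.53e-06, and 1.05 ± 0.13, adjusted p = 2.44e-06), and the acid trehalase gene *ATH1* (1.39 ± 0.19, adjusted p = 7.31e-06). *GAC1*, which encodes the subunit that directs this phosphatase to glycogen synthase, rose by 3.04. The sugar phosphate genes *HXK1*, *PGM2* and *GLK1* rose by 1.45, 1.23 and 0.95, and *PIG2*, *MSN4*, *YAK1* and the glycogenin gene *GLG1* by 0.97, 0.73, 1.04 and 0.89.

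*SGA1* is also a marker of sporulation. Its level did not exceed 19.2 CPM in any library. The sporulation markers *SPS1* and *DIT1* rose with it in *ino4Δ*, by log2 fold changes of 2.29 and 2.27, while *SPS4* and *SPO11* were not called. Thus 3 of the 5 markers rose there, where 19.2% of all tested genes did. Elsewhere 3 rose in *ino4Δ mga2ΔTM* (17.9%), 2 each in *mga2Δ* (9.52%), *OLE1* (6.08%) and *mga2ΔTM* (6.49%), and 1 in *MGA2* (3.42%). In *mga2ΔTM* 1 fell, where 1.46% of all tested genes fell. The mean log2 CPM of the 5 markers was 2.88 to 3.19 in *ino4Δ* libraries and 1.57 to 1.83 in wild-type. None of the 5 was at 0 in any library. Their part in the result was not tested.

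In *mga2Δ* 10 of the 33 genes rose and none fell, where 9.52% of all tested genes rose and 2.38% fell. The smallest adjusted p belonged to *DCS1*, an inhibitor of the neutral trehalase (0.62 ± 0.10, SE, adjusted p = 0.000166, edgeR), the phosphoglucomutase gene *PGM2* (1.41 ± 0.28, adjusted p = 0.000858), *GIP2* (1.52 ± 0.31, adjusted p = 0.000998) and the glucokinase gene *GLK1* (1.17 ± 0.24, adjusted p = 0.00127). The others were *SGA1*, *HXK1*, *YAK1*, *GLC8*, *ATH1* and *GAC1*.

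Of the plasmid strains, *OLE1* had 1 of the 33 genes called, *SGA1* (1.20), where 6.08% of all tested genes rose. In *MGA2* *MSN4* (0.63) and *PIG1* (0.66) rose and in *mga2ΔTM* *PIG1* (0.74), *ATH1* (0.64) and *SGA1* (0.74) did, where 3.42% and 6.49% of all tested genes rose. *HXK2*, which encodes the hexokinase that predominates on glucose, fell by 0.82 in *MGA2*, by 0.67 in *mga2ΔTM* and by 1.23 in *ino4Δ mga2ΔTM*. In *ino4Δ mga2ΔTM* 7 of the 33 genes rose, namely *SGA1*, *PIG1*, *ATH1*, *GIP2*, *GAC1*, *PIG2* and *YAK1*, which is close to the 17.9% of all tested genes that rose there, and *PGM1* fell with *HXK2*.

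Genes of the general stress response were measured in the same libraries. In a list of 15 such genes, among them *HSP12*, *CTT1* and *HSP26*, 15 rose in *mga2Δ* (9.52% of all tested genes rose there) and 15 in *ino4Δ* (19.2%), 12 in *ino4Δ mga2ΔTM* (17.9%), 8 in *OLE1* (6.08%), 8 in *MGA2* (3.42%) and 6 in *mga2ΔTM* (6.49%). Their mean log2 CPM was 5.04 to 5.98 in wild-type libraries, with replicate 2 highest, 6.96 to 7.46 in *mga2Δ* and 7.86 to 8.23 in *ino4Δ*. In *ino4Δ mga2ΔTM* it was 7.12 to 7.35, close to *mga2Δ*, but the mean of the 10 storage carbohydrate genes was 7.68 to 7.78 there against 7.84 to 8.51 in *mga2Δ*. Of 132 ribosomal protein genes, 107 fell in *ino4Δ* (10.1% of all tested genes fell there). In *ino4Δ mga2ΔTM* 114 fell (9.30%) and in *mga2Δ* 9 (2.38%). None was called in *OLE1*, *MGA2* or *mga2ΔTM*. The median log2 fold change of the 132 genes was -0.78 in *ino4Δ*, -0.94 in *ino4Δ mga2ΔTM* and -0.47 in *mga2Δ*. It was -0.24 in *OLE1*, -0.07 in *MGA2* and -0.37 in *mga2ΔTM*, where none was above 0. With library totals in place of TMM, the median of all tested genes moved up by 0.217 in *ino4Δ* and 0.208 in *ino4Δ mga2ΔTM*. Ribosomal protein counts under that scaling are not given here. The part of the stress response or of the ribosomal protein genes in these results was not tested.

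**Figure D4:**
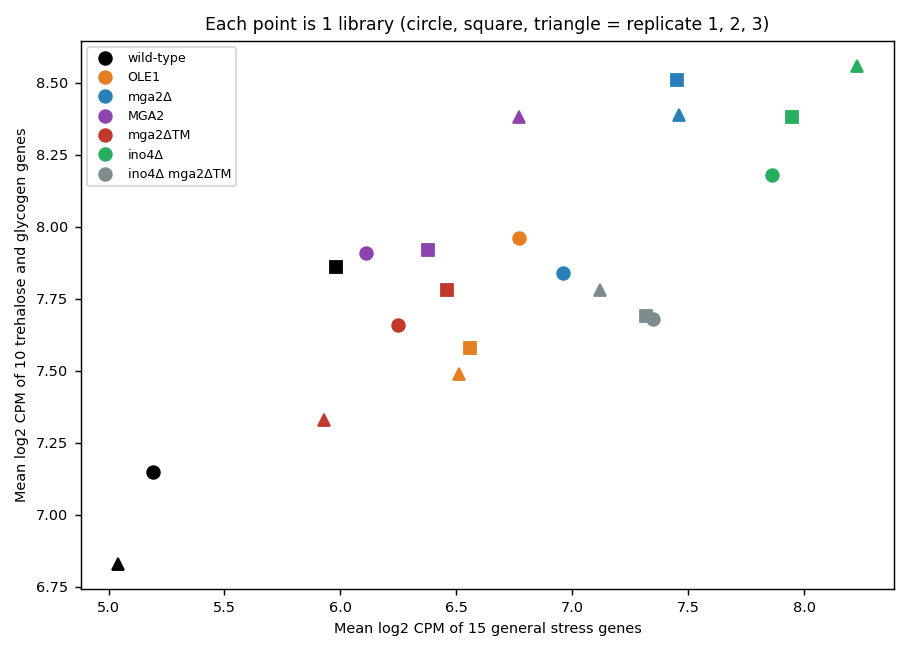
Mean log2 CPM of the 10 trehalose and glycogen genes (vertical axis) against the mean log2 CPM of 15 general stress genes (horizontal axis) for each of 21 libraries, coloured by strain, with circle, square and triangle for replicates 1, 2 and 3. Wild-type replicate 2 lies at 5.98 and 7.86, above the other wild-type libraries on both axes, and the *ino4Δ mga2ΔTM* libraries lie at 7.12 to 7.35 on the horizontal axis but at 7.68 to 7.78 on the vertical.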

How the data were processed

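The 21 yeast libraries were made by random priming after removal of rRNA and were read from one end over 50 bases. The authors aligned reads with STAR 2.5.1b to R64-1-1 and deposited raw counts per gene from HTSeq 0.5.4p3. Whether strand was used is not given in the sources used here. A deposited table of normalized values was not used.

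Of 7126 lines, 4 had no gene. Counts were filtered (filterByExpr, minimum count 10, minimum total 15), scaled by TMM and fitted over all libraries by robust quasi-likelihood in edgeR 4.0.16 under R 4.3.3, with 1 mean per strain. The fit was also run on simulated data in which only *ino4Δ* was changed, at fewer genes than were called there in the real data. The outcome is not given here, and no result rests on it. Alternatives were limma-voom (limma 3.58.1), DESeq2 1.42.0, RLE size factors, library totals, no low-count filter, replicate number as a block, no fold threshold, only the strains compared, and each library left out. For ratios the added count was varied.

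The 10 genes and all lists were chosen with earlier results of these data known. Named were all 10 genes, genes of the wider list called against wild-type, engineered genes, markers and the 8 genes most like the mean of the 10. Values of genes of the stress list are given as counts and means. Coordinates and promoter letters come from the RefSeq R64 assembly. Promoter sequence of *GPH1* and *GDB1* is not reported here. Figures were drawn with matplotlib 3.10.9.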

Additional observations from a re-analysis of the deposited data

How the results depend on the processing

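Of 800 log2 fold changes of single genes under alternatives that kept all libraries, 749 kept their direction and their call, 16 lost the call, 21 gained it and 14 changed sign. With only the strains compared, the called genes numbered 3 in *mga2Δ*, 1 in *MGA2* and 0 in *mga2ΔTM* against wild-type, and 7 in *ino4Δ mga2ΔTM* against *ino4Δ*. Of all tested genes, 8.53%, 1.87%, 7.05% and 9.76% were called there in either direction. With limma-voom there were 4 in *MGA2* (3.99% of all tested genes) and 4 in *ino4Δ mga2ΔTM* (27.1%) against wild-type. With library totals there were 2 in *ino4Δ* against *mga2Δ* (13.6%) and 4 in *ino4Δ mga2ΔTM* against wild-type (30.1%). With no fold threshold there were 3 in *ino4Δ* against *mga2Δ* (36.5%) and 1 in *ino4Δ mga2ΔTM* against *mga2ΔTM* (39%). DESeq2 called 2 in *mga2ΔTM* against *MGA2* (3.67%) and 1 in the difference of plasmid changes (3.94%). The cause of these shifts was not tested.

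Leaving out each library in turn gave 4 to 9 called genes in *mga2Δ*, 2 to 9 in *MGA2*, 0 to 2 in *mga2ΔTM* and 2 to 6 in *ino4Δ mga2ΔTM* against wild-type. Against *mga2Δ* it gave 1 to 2 in *MGA2* (2 lower and none higher without *MGA2* replicate 3), 0 to 2 in *ino4Δ* and 2 to 5 in *mga2ΔTM*. Against *ino4Δ* it gave 1 to 4 in *ino4Δ mga2ΔTM*. Against wild-type, the share of all tested genes called in either direction was 8.75% to 19.2% in *mga2Δ* and 2.59% to 5.94% in *MGA2*. It was 6.49% to 9.15% in *mga2ΔTM* and 25.3% to 29.7% in *ino4Δ mga2ΔTM*. Against *mga2Δ* the share was 6.66% to 13.5% in *MGA2*, 11.1% to 11.9% in *ino4Δ* and 10.6% to 16.9% in *mga2ΔTM*. For *ino4Δ mga2ΔTM* against *ino4Δ* it was 7.95% to 11.1%.

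Some uncalled log2 fold changes changed sign. With all libraries kept, these had been near 0 in the main fit. With single libraries left out they included values farther from 0, such as *GLC3* (0.55) and *GSY1* (-0.29) in *OLE1*. Against wild-type, *TPS3* was 0.01 (library totals) and 0.00 (only the strains compared) in *OLE1*, 0.07 (library totals) in *mga2ΔTM*, and -0.01 (DESeq2), -0.01 (RLE) and -0.00 (no filter) in *ino4Δ*. In *ino4Δ mga2ΔTM*, *TPS1* was 0.03 (limma-voom) and 0.20 (library totals), and *GSY2* was -0.00 (DESeq2), -0.00 (RLE), -0.01 (no filter) and -0.02 (only the strains compared). *GDB1* in *MGA2* against *mga2Δ* was -0.03 (library totals). With each library left out, *OLE1* against wild-type ranged from -0.11 to 0.12 for *TPS3*, -0.75 to 0.38 for *GSY1*, -0.03 to 0.44 for *GSY2* and -0.01 to 1.20 for *GLC3*. *mga2ΔTM* ranged from -0.11 to 0.26 for *TPS1*, -0.40 to 0.22 for *TPS2*, -0.12 to 0.11 for *TPS3* and -0.54 to 0.45 for *GSY1*. *TPS3* in *ino4Δ* ranged from -0.09 to 0.14. *ino4Δ mga2ΔTM* ranged from -0.13 to 0.24 for *TPS1*, -0.62 to 0.37 for *GSY1* and -0.18 to 0.29 for *GSY2*, and its log2 *GSY1*/*GSY2* ratio less that of wild-type from -0.38 to 0.05. Against *mga2Δ*, *MGA2* ranged from -0.18 to 0.12 for *GSY2* and -0.10 to 0.11 for *GDB1*, *mga2ΔTM* from -0.22 to 0.08 for *GDB1*, and *ino4Δ* from -0.15 to 0.23 for *TSL1*, -0.52 to 0.09 for *GSY1* and -0.13 to 0.17 for *GSY2*.

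Replicate numbers did not pair the libraries. Deviations from the strain means correlated at -0.35 to 0.45 over 63 same-numbered pairs, with a mean of 0.018, and 20 pairs were above 0.1. With the replicate number as a block, called genes numbered 8 in *mga2Δ* (without *GSY1*), 8 in *ino4Δ* and 2 in each plasmid strain against wild-type, 3 in *mga2ΔTM* against *mga2Δ* (without *TSL1*), 3 in *ino4Δ mga2ΔTM* against *ino4Δ* (without *GSY1*) and as before in the others. Of all tested genes, 12% were then called in *mga2Δ*, 29.3% in *ino4Δ* and 4.01% (*MGA2*) to 27.2% (*ino4Δ mga2ΔTM*) in plasmid strains against wild-type. The share was 12.8% in *mga2ΔTM* against *mga2Δ* and 9.15% in *ino4Δ mga2ΔTM* against *ino4Δ*. *TPS1* in *ino4Δ mga2ΔTM* was 0.01 with this block.

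Library totals in place of TMM moved the median log2 fold change of all genes by 0.217 in *ino4Δ*, 0.208 in *ino4Δ mga2ΔTM* and 0.117 in *ino4Δ mga2ΔTM* against *mga2ΔTM*. Higher and lower calls over all genes were then 1682 and 258 instead of 1185 and 620 in *ino4Δ*, 1549 and 309 instead of 1105 and 573 in *ino4Δ mga2ΔTM*, 743 and 74 instead of 587 and 147 in *mga2Δ*, and 795 and 97 instead of 574 and 227 in *ino4Δ mga2ΔTM* against *mga2ΔTM*. The lowest count of any of the 10 genes in any library was 497 (*GSY1*, wild-type replicate 3).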

Other observations

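Across the 21 libraries, the genes whose log2 CPM ran most like the mean of the 10 storage carbohydrate genes were *SOL4* (Pearson r = 0.96), *GLK1* (0.95) and *PGM2*, *NDI1*, *HXK1*, *YKL091C*, *MCR1* and *STF2* (0.93 each), out of 5064 genes with a mean of at least 10 CPM. *SOL4* encodes a 6-phosphogluconolactonase, *NDI1* the internal mitochondrial NADH dehydrogenase and *MCR1* a mitochondrial cytochrome b5 reductase. *GLK1*, *PGM2* and *HXK1* are also in the wider list and *SOL4* is in the stress list. These correlations describe libraries that share strain, medium and scaling. Among the 10 genes, *TSL1* was closest to the mean, which includes it, at r = 0.97, and *TPS3*, *GPH1* and *GDB1* were farthest, at 0.66, 0.77 and 0.79.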
